A study of Mus musculus with 6 samples.

Results

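Nts, Tmeff2, Mlip, Aff2 and Lhfpl3 are 5 of the 54446 genes counted in droplet single-cell RNA-seq of mouse glioma cultures. They were chosen by symbol, for having almost no UMIs (counted molecules) in GL261 and over 50 CPM (UMIs scaled to library size with TMM factors) on average in GL261-GSCs. Differences of these genes between the cultures are therefore a description and carry no test. GL261, an established mouse glioma line that the labels call glioblastoma cells, was represented by 2 libraries of cells kept with fetal calf serum in a differentiation medium. GL261-GSCs, labelled glioblastoma stem cells, were represented by 4 libraries of cultures in a defined stem cell medium. No genotype, strain, passage, clone or agent is given beyond the media, and medium and growth as neurospheres cannot be told apart. The labels leave it unclear whether whole cells or nuclei were captured for the 5′ libraries, and whether libraries came from separate cultures. The p-values therefore speak for these libraries only. Their estimate of spread is shared across genes, so they do not measure the spread of a single gene between libraries.

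The genes encode proteins of unrelated kinds. Nts encodes the precursor of neurotensin, a secreted peptide that is cut out by prohormone convertases and acts on the G protein-coupled receptors Ntsr1 and Ntsr2, with sortilin (Sort1) as a further binding partner. Tmeff2 encodes a brain-rich transmembrane protein with follistatin-like and EGF-like domains, whose outer part is shed by proteases and can bind the growth factor PDGF-AA. Mlip encodes a partner of lamin A/C best known from striated muscle. Aff2 is the X-linked gene silenced in FRAXE intellectual disability, of the family whose members Aff1 and Aff4 are scaffolds of the super elongation complex of transcription. Lhfpl3 encodes a tetraspan membrane protein whose transcript is known as a marker of oligodendrocyte precursor cells (OPCs), the proliferating glia that give rise to myelinating cells.

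The RefSeq promoters of the genes (GRCm38.p6, all 5 matched by symbol) are shown because the same E-box, CAGCTG, a core that basic helix-loop-helix factors such as Olig2 can bind, was found in 4 of them. Each window ran from 250 bases before to 50 after the annotated start, and both strands were searched. The 250 bases before the start are printed 5′ to 3′ on the strand of the gene, with matches to the motifs searched in capitals. They lie at chr10:102490419-102490668 (minus strand) for Nts, chr9:77347871-77348120 (minus) for Mlip, chrX:69360081-69360330 (plus) for Aff2 and chr5:22745804-22746053 (plus) for Lhfpl3.
Nts: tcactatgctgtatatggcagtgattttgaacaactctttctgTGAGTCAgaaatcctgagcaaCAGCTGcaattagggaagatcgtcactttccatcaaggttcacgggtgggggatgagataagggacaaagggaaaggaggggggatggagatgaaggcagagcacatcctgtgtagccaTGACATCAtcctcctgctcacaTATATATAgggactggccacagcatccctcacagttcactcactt
Mlip: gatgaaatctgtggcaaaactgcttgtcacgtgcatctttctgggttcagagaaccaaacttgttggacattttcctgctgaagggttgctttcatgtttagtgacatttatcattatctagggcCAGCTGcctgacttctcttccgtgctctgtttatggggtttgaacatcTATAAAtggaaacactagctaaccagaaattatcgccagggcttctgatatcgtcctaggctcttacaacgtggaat
Aff2: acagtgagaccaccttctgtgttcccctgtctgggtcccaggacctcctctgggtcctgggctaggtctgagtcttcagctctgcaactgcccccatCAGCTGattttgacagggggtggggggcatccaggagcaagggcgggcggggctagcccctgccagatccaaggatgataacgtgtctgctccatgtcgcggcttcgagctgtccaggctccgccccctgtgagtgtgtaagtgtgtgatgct
Lhfpl3: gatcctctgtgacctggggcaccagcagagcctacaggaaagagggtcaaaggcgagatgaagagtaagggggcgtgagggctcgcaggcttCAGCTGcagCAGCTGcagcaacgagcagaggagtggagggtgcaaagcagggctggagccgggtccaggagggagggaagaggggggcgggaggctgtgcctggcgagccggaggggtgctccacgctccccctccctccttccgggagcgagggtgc
Of 32851 RefSeq promoters of the same length, 16.3% held CAGCTG. Lhfpl3 held it at 2 places in this stretch, and Nts held another copy just after its start. Nts alone of the 5 held the AP-1 motif TGANTCA (7.81% of all promoters) and the cAMP response element or a variant of it, TGACNTCA (8.83%). Upstream of its start Nts also held TATATA (5.67% of all promoters), and Mlip held TATAAA (13.6%). The SOX core AACAAT (10.7%) was found in none of the 5 windows. The window of Tmeff2, at chr1:50927273-50927522 (plus strand) for its upstream part, held none of these letters. It was rich in G and C, with 24 CpG dinucleotides over 300 bases against a median of 7 over all promoters. The windows of Aff2 and Lhfpl3 held 16 and 12 CpG, and those of Mlip and Nts 7 and 3. These matches describe letters in a window and show neither binding nor a cause.

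In the GENCODE M21 annotation of GRCm38, Nts (ENSMUSG00000019890.4) lies at chr10:102481756-102490486 and is compact, with a span of 8.73 kb. The other genes are long. Tmeff2 (ENSMUSG00000026109.14, chr1:50900647-51187270) spans 287 kb, Mlip (ENSMUSG00000032355.16, chr9:77102081-77352969) 251 kb, Aff2 (ENSMUSG00000031189.12, chrX:69360294-69868037) 508 kb, and Lhfpl3 (ENSMUSG00000106379.1, chr5:22746059-23275597) 530 kb. All but Nts overlap smaller annotated genes, some of them antisense, and the sources used here do not state whether counting used strand. Lhfpl3 is the most exposed of the 5. It overlaps A930003O13Rik on the other strand, with 11 UMIs in GL261 and 1724 in GL261-GSCs. On its own strand it overlaps 6030443J06Rik, with 331 and 1595 UMIs, and Gm21846, with 4 and 1758. Tmeff2 overlaps Gm28322 on its own strand, with 5456 UMIs. Values of these overlapping genes are uncertain to that extent.

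The libraries held 80899005 to 121309232 UMIs, of which 41.2% to 65.7% were in called cells. Replicates 1 to 4 of GL261-GSCs held 4264, 5870, 7275 and 4512 called cells, and the GL261 replicates 4808 and 5002. Median UMIs per cell lay between 10638 and 15477.5 in 5 libraries and was 6670 in GL261-GSCs replicate 4. Pairs of libraries shared 32 to 59 called barcodes. Across 18433 genes tested on UMIs summed per library, 29.9% differed between the cultures (edgeR quasi-likelihood test, adjusted p under 0.05), 15.8% higher and 14.1% lower in GL261-GSCs. These shares rest on both GL261 libraries, since the 5514 genes called became 1978 without GL261 replicate 1 and 1816 without replicate 2. With library sizes alone in place of TMM, 3491 genes were higher and 2034 lower in place of 2920 and 2594, and the median over all genes moved from 0.04 to 0.18 on the log2 scale. Lists of markers of other cell types were mixed. Of 7 muscle genes, Myod1 was at 0 UMIs in GL261-GSCs. Des and Myh3 were called higher there and 1 muscle gene was called lower. Also at 0 UMIs there were 2 of 9 myeloid genes, C1qa among them, and 2 of 13 neuronal genes, Rbfox3 among them. So were Cldn5 of 6 endothelial genes and Aqp4 and Gjb6 of 9 astrocyte genes. Present and called higher were the endothelial Flt1 (72.1 CPM), the neuronal Syt1 (35.8 CPM) and the astrocyte Aldoc (160.4 CPM), Slc1a3 (74.7 CPM) and S100b (78.4 CPM). Called lower there were the astrocyte Gfap (from 1.29 to 0.0175 CPM) and Aldh1l1 (from 6.80 to 0.00691 CPM), the endothelial Cdh5 and the myeloid Csf1r. Of the fibroblast or pericyte genes 2 were called lower, among them Col1a1 (from 264 to 17.3 CPM). Col3a1 of that list was called higher (from 5.51 to 144 CPM). The calls of Flt1, Syt1, Aldoc, S100b and Col3a1 were lost when either GL261 library was left out, with adjusted p of 0.0696 to 0.207 (edgeR), and that of Flt1 also without GL261-GSCs replicate 3 (0.050016). Summed levels over whole lists in GL261 and GL261-GSCs libraries were 12.9 to 13.1 and 0.192 to 0.364 CPM for myeloid genes, 85.4 to 92.5 and 37.8 to 89.8 CPM for neuronal genes, 36.3 to 48.6 and 59.0 to 86.1 CPM for endothelial genes, 97.7 to 104 and 325 to 499 CPM for astrocyte genes, and 258 to 292 and 38.2 to 228 CPM for fibroblast or pericyte genes. Their part in the results was not tested. The label of stem cells was met by some markers only. Of 6 neural stem genes tested, 4 were higher in GL261-GSCs and 2 lower, the latter Nes and Hes1. The summed level of the 8 listed genes was lower there, at 534 to 795 CPM against 1287 to 1368 CPM in GL261 libraries. The stem cell surface marker Prom1 was near 0, with 3 UMIs over the GL261 libraries and 8 over the others.

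In GL261 the genes were close to absent. Aff2 had 0 UMIs in the cells of both GL261 libraries. Nts had 1 UMI in each GL261 library, Mlip had 2 in replicate 1 and 0 in replicate 2, and Tmeff2 had 3 in each. Lhfpl3 had 32 and 20 UMIs, or 0.403 ± 0.101 CPM (SD, n = 2), so that it was low but present, and for this gene the name "switched on" goes further than the data. Whether UMIs of 6030443J06Rik, which overlaps it and had 331 in GL261, were among them was not tested. These UMIs were spread over 61 called GL261 cells, none of which held more than 1 of the 5 genes or more than 2 UMIs of any. Of the GL261 barcodes with such a UMI, 1 was also called a cell in a GL261-GSCs library.

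In GL261-GSCs each gene was present in every library. Nts stood at 223, 247, 345 and 252 CPM in replicates 1 to 4, a mean of 267 ± 53.4 (SD, n = 4). Tmeff2 stood at 168, 139, 192 and 172 CPM, or 168 ± 22.1 (SD, n = 4). These were the steadiest of the 5, with a highest library 1.54 and 1.39 times the lowest. Mlip stood at 45.5, 142, 87.1 and 77.8 CPM, or 88.1 ± 40.2 (SD, n = 4). Lhfpl3 stood at 76.2, 194, 133 and 151 CPM, or 138 ± 48.8 (SD, n = 4). Both were lowest in replicate 1 and highest in replicate 2. Aff2 stood at 18.9, 24.4, 65.0 and 96.6 CPM, or 51.2 ± 36.6 (SD, n = 4). It varied most, with a highest library 5.12 times the lowest, and replicates 3 and 4 held most of it. GL261 and GL261-GSCs libraries did not overlap for any of the 5, which follows from how the genes were chosen. Without TMM factors the means were 276, 174, 91.4, 53.8 and 144 CPM for Nts, Tmeff2, Mlip, Aff2 and Lhfpl3.

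**Figure D1:**
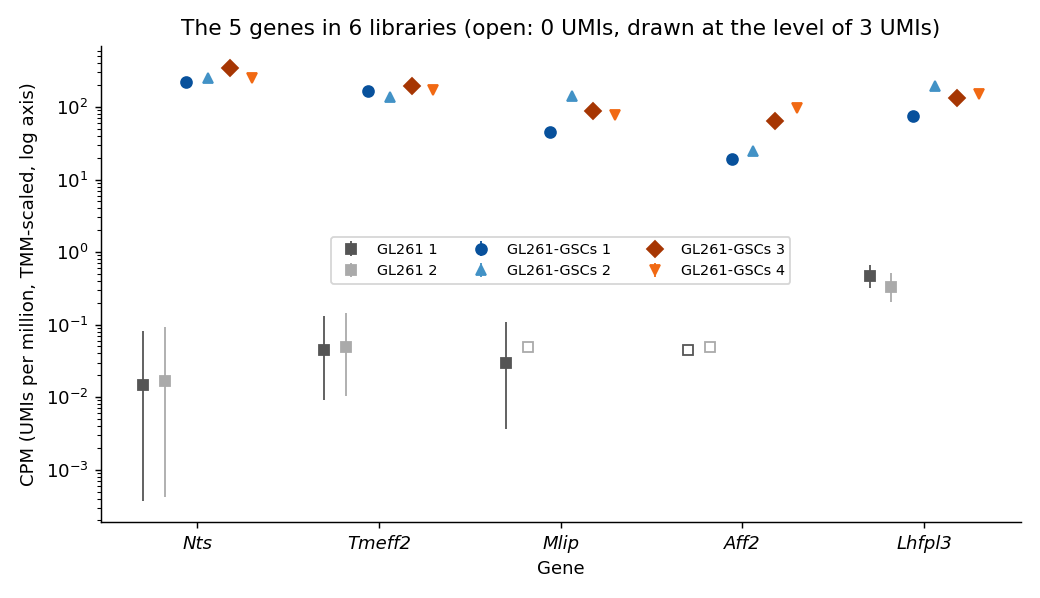
Level of each gene in CPM (log axis) in the 2 GL261 and 4 GL261-GSCs libraries, with 95% counting intervals as bars. Open symbols are libraries with 0 UMIs, drawn at the level that 3 UMIs would give. The gap between GL261 and GL261-GSCs points follows from how the genes were chosen.

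As ratios of pooled UMIs scaled by TMM, with 95% intervals that cover counting error only, Nts was 17426 times higher in GL261-GSCs (4824 to 143895). Mlip was 5799 times higher (1605 to 47885) and Tmeff2 3579 times (1644 to 9754). Lhfpl3, with more UMIs in GL261 to count, was 340 times higher (259 to 455). Aff2 was at least 1962-fold higher when 3 UMIs, pooled over the GL261 libraries, are taken as the floor. The width of the intervals comes from the few GL261 UMIs. Since the genes were chosen on these levels, the intervals are not read as differences between genes. The Mlip UMIs of GL261 were all in replicate 1, so its ratio rests on that library.

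The threshold of 50 CPM passed through a continuous range. With at most 10 UMIs over both GL261 libraries, 13 genes averaged over 50 CPM in GL261-GSCs, and Nts, Tmeff2, Mlip and Aff2 were 4 of them. Just inside the threshold were Fam19a4 at 66.4 CPM, Dner at 65.3 CPM and Aff2 at 51.2 CPM. Just outside were Ncam2 at 44.7 CPM, Kcnip3 at 39.6 CPM and Fndc3c1 at 38.4 CPM. Lhfpl3 entered only where 60 UMIs in GL261 were allowed, which let in 24 genes.

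The genes whose pattern over the 6 libraries was most like each member were found by the root mean square difference of log2(CPM + 1), after centring each gene. Nearest to Nts were Tmeff2 (0.36), the OPC transcription factor Olig2 (0.42) and the receptor phosphatase Ptprz1 (0.46). Nearest to Tmeff2 were the oligodendrocyte receptor Gpr37 (0.27), Nts (0.36) and the semaphorin Sema3d (0.47). Mlip and Lhfpl3 were nearest to each other (0.18), followed for both by the LIM-domain gene Fhl1 (0.32 for Mlip, 0.20 for Lhfpl3). The third of each was Fabp7 (0.35), a fatty acid binding protein of radial glia, for Mlip and the glutamate transporter Slc1a3 (0.33) for Lhfpl3. Nearest to Aff2 were the Notch ligand Dner (0.21), the semaphorin Sema3a (0.22) and the potassium channel partner Kcnip3 (0.36). These values are on the log2 scale over 6 libraries. Centring was over all 6, so the gap between GL261 and GL261-GSCs, on which the members were chosen, enters each value. Within GL261-GSCs, Olig2 stood at 401, 413, 787 and 628 CPM in replicates 1 to 4. Nts stood at 223, 247, 345 and 252 CPM there.

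Genes flanking the members on the chromosome were not all near 0 in GL261. Mgat4c and Rassf9 beside Nts, Tinag beside Mlip and Gm6812 beside Aff2 were all at 0 UMIs in GL261. Their UMIs in GL261-GSCs numbered 15, 4, 3 and 4. Cavin2, a caveolar protein gene 101.9 kb from Tmeff2, stood at 6.24 CPM against 8.12 CPM in GL261 and did not pass the test (log2 fold change -0.37, adjusted p = 0.784, edgeR). Slc39a10, a zinc transporter and the nearest gene on the other side of Tmeff2 at 4008 kb, was higher in GL261-GSCs, at 54.1 CPM against 18.8 CPM (log2 fold change 1.52, SE 0.14, adjusted p = 0.000594, edgeR). Orc5, an origin recognition subunit 196 kb from Lhfpl3, stood at 43.9 CPM against 17.7 CPM (1.31, SE 0.16, adjusted p = 0.00177, edgeR). Lrrc1, 77.9 kb from Mlip, was at 13.7 CPM against 7.55 CPM (0.86, SE 0.17, adjusted p = 0.0119, edgeR), a call lost without GL261 replicate 1 (0.113) or 2 (0.119). Kmt2e, a histone methyltransferase family gene on the other side of Lhfpl3, was at 177 CPM against 182 CPM and did not pass the test (log2 fold change -0.04, adjusted p = 0.836, edgeR).

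At 2000 UMIs per cell, each gene was seen in a minority of cells. With each cell thinned to 2000 UMIs, for which every called cell was deep enough, Nts was seen in 30.6%, 30.4%, 42.2% and 33.3% of cells of GL261-GSCs replicates 1 to 4, or 34.1% ± 5.51 (SD, n = 4). Exact binomial 95% intervals were 29.2 to 32.0% in replicate 1 and 41.0 to 43.3% in replicate 3, the highest. These intervals cover the sampling of cells only, not the spread between cultures. Tmeff2 was seen in 29.5%, 24.5%, 29.4% and 27.7% of cells, or 27.7% ± 2.32 (SD, n = 4). Lhfpl3 was seen in 14.3%, 32.8%, 24.7% and 29.8%, or 25.4% ± 8.10 (SD, n = 4). Mlip was seen in 7.79%, 22.6%, 15.4% and 14.9%, or 15.2% ± 6.05 (SD, n = 4). Aff2 was seen in 4.88%, 5.11%, 13.9% and 22.3%, or 11.5% ± 8.29 (SD, n = 4), with intervals of 4.25 to 5.57% in replicate 1 and 21.05 to 23.5% in replicate 4.

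Free RNA in the droplets would give lower shares than those seen for every gene in each GL261-GSCs library. Estimated from barcodes with 100 to under 1000 UMIs, it would give 3.01% to 7.95% for Nts, 1.42% to 3.51% for Tmeff2, 0.703% to 2.25% for Mlip, 0.144% to 1.28% for Aff2 and 0.334% to 1.84% for Lhfpl3. The level of Nts and Mlip per UMI was higher in those barcodes than in called cells in 4 of 4 libraries, at 289, 310.4, 627 and 349.5 CPM (without TMM) against 225, 256, 347 and 276 CPM for Nts. For Aff2 and Lhfpl3 it was lower in 4 of 4. In GL261, where the rule kept the genes near 0, Lhfpl3 was seen in 7 cells over both libraries at the same depth, Tmeff2 in 4 and Mlip in 1. Nts and Aff2 were seen in 0 GL261 cells at this depth, which allows shares of cells with a UMI of up to 0.0624% and 0.0600% in replicates 1 and 2 (3 counts of the cells, counting error only). Without thinning Nts was seen in 1 cell of each. Median depths before thinning were 15477.5 and 13651.5 UMIs in these GL261 libraries. Without thinning, GL261-GSCs shares averaged 69.7% for Nts, 66.1% for Tmeff2, 45.6% for Mlip, 33.6% for Aff2 and 64.3% for Lhfpl3. A share at 2000 UMIs therefore counts cells in which a molecule was sampled, not all cells that express the gene.

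**Figure D2:**
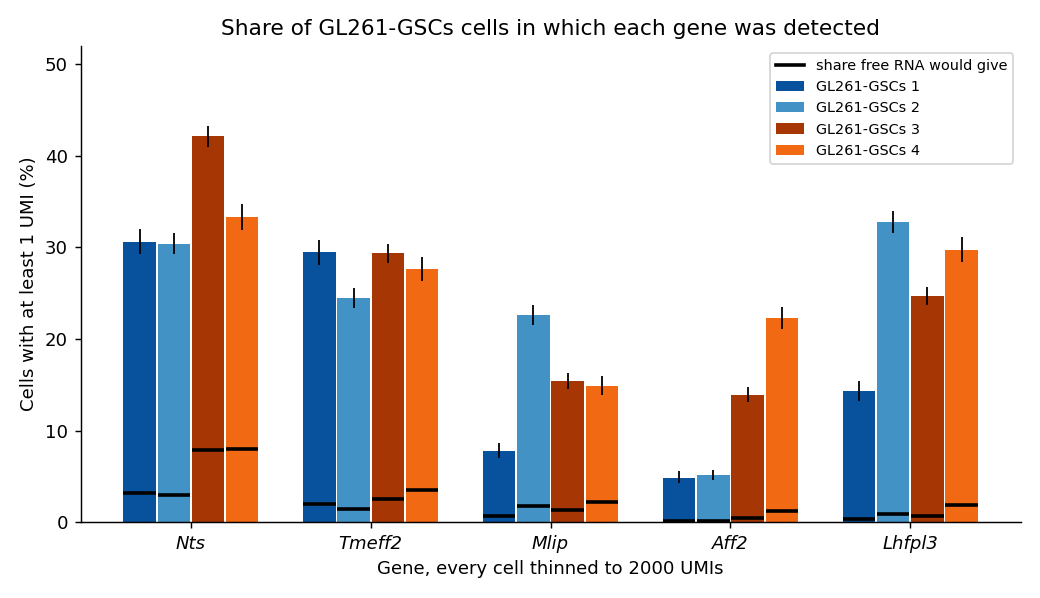
Share of GL261-GSCs cells (%) with at least 1 UMI of each gene, every cell thinned to 2000 UMIs, as bars by library with exact binomial 95% intervals and thick lines for the share that free RNA would give. Tmeff2 ran from 24.5% to 29.5% across libraries, Nts from 30.4% to 42.2% and Aff2 from 4.88% to 22.3%.

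Nts and Tmeff2 were uneven between cells. The variance of UMIs per cell over their mean (the Fano factor, 1 for Poisson sampling) was 1.58 to 2.43 for Nts and 1.47 to 2.18 for Tmeff2 at 2000 UMIs. It was 1.27 to 1.63 for Lhfpl3, 1.11 to 1.52 for Aff2 and 1.09 to 1.23 for Mlip. The factor depends on the mean too, so its order is not an order of unevenness. Mean UMIs per cell were 0.46 to 0.68 for Nts and 0.34 to 0.47 for Tmeff2. They were 0.17 to 0.45 for Lhfpl3, 0.053 to 0.30 for Aff2 and 0.086 to 0.28 for Mlip. Cells with 3 or more Nts UMIs made up 3.38% to 5.76% of a library, and the fullest cell of each library held 9 to 22. For Mlip such cells made up 0.05% to 1.09%.

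The number of the 5 genes held by a cell was compared with what independent detection would give. At 2000 UMIs, 38.5%, 25.4%, 23.0% and 24.9% of cells in replicates 1 to 4 held none of them, against 36.8%, 25.9%, 22.4% and 22.4% for independent detection. Cells with all 5 numbered 0, 3, 6 and 12, and the 12 cells of replicate 4 were 0.266% against 0.0908% for independent detection. Without thinning, where cells of different depth stand together, both ends exceeded independence in 4 of 4 libraries. Cells with none then made up 1.85%, 1.21%, 1.33% and 4.79%, against 1.08%, 0.729%, 0.716% and 2.90%, and cells with all 5 made up 3.33%, 6.49%, 9.47% and 5.14%, against 2.62%, 4.81%, 7.21% and 2.95%. Detection together was compared with the product of the shares, as cells observed over cells expected, for the 10 pairs. These ratios are descriptions across cells that share a library.

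Aff2 and Lhfpl3 were found together more often than the product of their shares in 4 of 4 libraries, at 1.28 ± 0.05 (SD, n = 4), or 869 cells where 677 were expected. Tmeff2 and Aff2 had a ratio of 1.20 ± 0.01 (SD, n = 4), with 847 cells and 710 expected. Nts and Lhfpl3 were found together less often in 4 of 4, at 0.91 ± 0.03 (SD, n = 4), or 1813 cells and 1977 expected. Nts and Aff2 were at 1.55 in replicate 1 and between 0.91 and 1.11 in the others. The remaining pairs lay between means of 1.01 and 1.13, and all but Nts with Mlip had libraries on both sides of 1. Cells in which Tmeff2, Aff2 or Lhfpl3 was seen were shallower before thinning than the rest. With the expectation taken within 5 bins of cell depth, the ratios were 1.15 for Aff2 and Lhfpl3, 1.09 for Tmeff2 and Aff2, and 0.92 for Nts and Lhfpl3. The ratios over whole libraries depended on the depth of thinning too: without thinning they were 1.04, 1.05 and 1.002. The same sign in 4 of 4 libraries was not kept at every setting. Aff2 with Lhfpl3 was at 0.971 in replicate 1 among all barcodes with at least 1000 UMIs, thinned to 1000, and within depth bins at 0.810 there and at 0.983 in replicate 2 at 4000 UMIs. Nts with Lhfpl3 was at 1.01 in replicate 4 at 4000 UMIs within depth bins, and above 1 in replicates 3 and 4 without thinning. Tmeff2 with Aff2 was above 1 in each library at each of these settings.

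**Figure D3:**
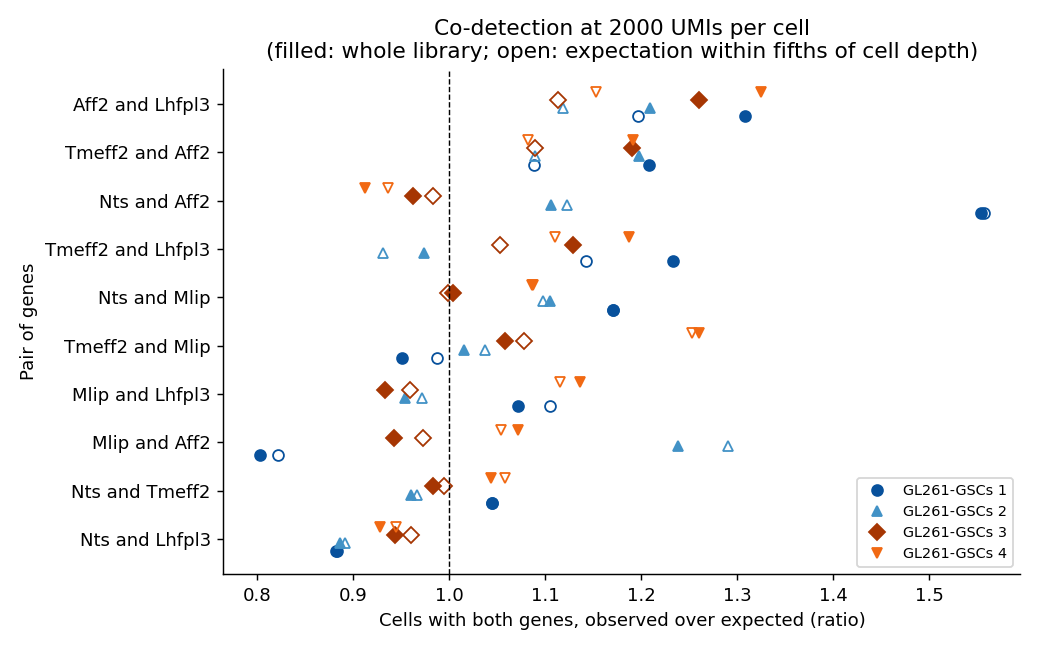
Cells with both genes of a pair, observed over expected, at 2000 UMIs per cell, with 1 point per GL261-GSCs library, and the dashed line at 1 marking independent detection. Filled symbols use the shares of the whole library, open symbols those within 5 bins of cell depth. Aff2 with Lhfpl3 and Tmeff2 with Aff2 lie above 1 in every library and Nts with Lhfpl3 below.

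To ask which genes go with each member from cell to cell, GL261-GSCs cells were divided within each library into those with and without a UMI of the gene at 2000 UMIs. Sums of the thinned UMIs were compared over the 4 libraries, with the library as a block (edgeR quasi-likelihood test, Benjamini-Hochberg over all genes). Without that block no gene was called for any of the 5 (edgeR). The choice of the 5 genes did not use these contrasts. The classes differed in more than the gene. In replicates 1 to 4, cells with Aff2 had a median of 13103.5, 9739.5, 7949 and 4267.5 UMIs and cells without it 15433, 11968, 10997.5 and 7454. Lhfpl3 and Tmeff2 divided the cells in the same direction, in 4 of 4 libraries each. Cells with Aff2 also held more of 5 nuclear RNAs (Malat1, Neat1, Kcnq1ot1, Meg3 and Lncpint, chosen after their values were seen), at 0.569%, 0.794%, 0.992% and 1.72% of UMIs against 0.393%, 0.444%, 0.609% and 1.06%. Kcnq1ot1 and Lncpint were among the 3 largest rises named for Aff2 classes, and Kcnq1ot1 for Lhfpl3 classes. The difference in the 5 RNAs was therefore partly set by their choice. Ribosomal protein genes took less of the UMIs of cells with Aff2, 10.9% against 13.3% in replicate 1 and 8.78% against 13.7% in replicate 4. Mlip and Nts classes were closer in depth, and cells with either gene were the deeper ones in 4 of 4 libraries. For Mlip the medians were 16827 against 15263.5 UMIs in replicate 1. For Nts they were 15374.5 against 15373.5 in replicate 1 and 7208 against 6461 in replicate 4. Cells with Nts held less of the nuclear RNAs in 4 of 4 libraries, at 0.381% against 0.410% in replicate 1 and 1.08% against 1.28% in replicate 4. Each contrast was therefore also run among cells above their library's median UMIs only, called deeper cells below, an alternative chosen after seeing the data.

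**Figure D4:**
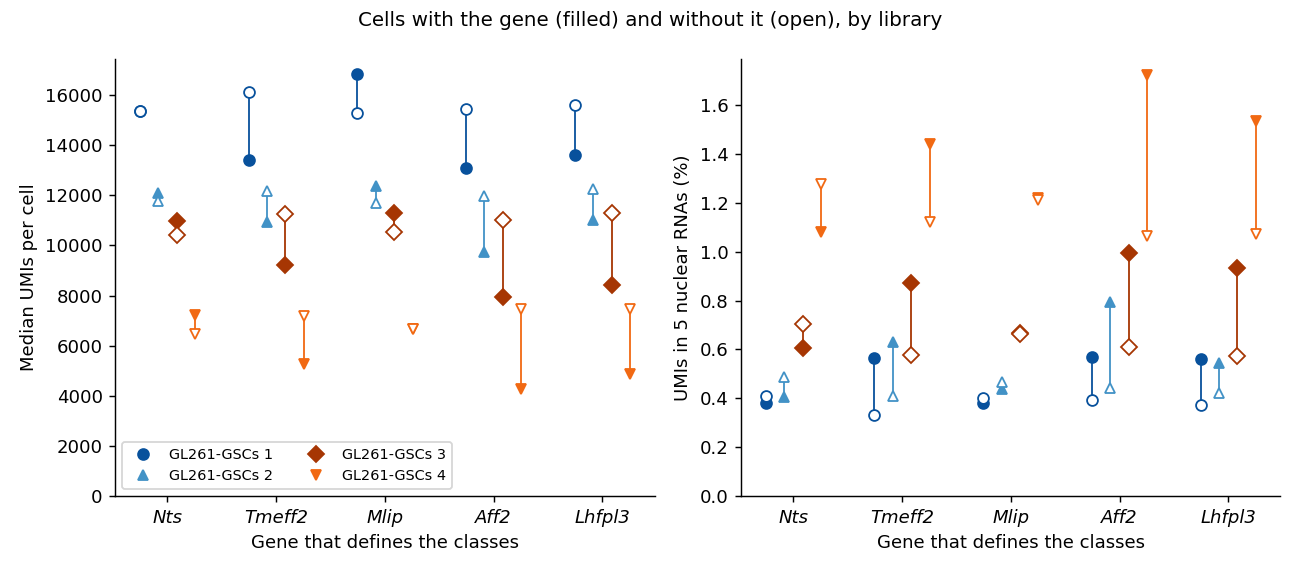
Median UMIs per cell (left) and share of UMIs in 5 nuclear RNAs (right, %) for GL261-GSCs cells with each gene (filled) and without it (open), by library. Cells with Tmeff2, Aff2 or Lhfpl3 were shallower and held more of these 5 RNAs in every library, and Nts and Mlip classes lay closer together. The 5 RNAs were chosen after their values were seen.

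Of the genes tested, 4.76% differed between Nts classes (3.2% higher and 1.55% lower), 33.7% between Tmeff2 classes (14.4% and 19.2%), 1.58% between Mlip classes (1.05% and 0.533%), 35.4% between Aff2 classes (16.6% and 18.8%) and 33.5% between Lhfpl3 classes (14.7% and 18.8%). Among deeper cells the counts went from 591, 4142, 193, 4288 and 4090 genes to 109, 436, 52, 104 and 86. That set also held fewer cells with each gene. In replicates 1 to 4, cells with Aff2 numbered 85, 107, 349 and 286 there, in place of 208, 300, 1013 and 1004. Cells with Lhfpl3 numbered 248, 824, 658 and 488, in place of 611, 1925, 1795 and 1343. The part of these lower numbers in the calls lost was not tested. The balance of directions in the large comparisons depended on the scaling. With library sizes alone, 3407 genes were higher and 1228 lower in cells with Tmeff2, in place of 1776 and 2366. The split was 3762 and 1223 for Aff2, in place of 2011 and 2277, and 3588 and 1025 for Lhfpl3, in place of 1799 and 2291. For Nts it was 168 and 554 in place of 398 and 193, and for Mlip 122 and 65 in place of 128 and 65. Without the filter on low counts the split was 240 and 247 for Nts and 52 and 138 for Mlip. The counts also moved with single libraries. For Nts 180 genes were called without replicate 2, 239 without replicate 3 and 301 without replicate 4. For Mlip 119, 107 and 124 were called without replicates 2, 3 and 4. For Aff2 2776 and 2769 were called without replicates 3 and 4, and for Lhfpl3 2307 without replicate 3. With library sizes alone the median of all genes was at 0.12 for Tmeff2, 0.19 for Aff2 and 0.12 for Lhfpl3 on the log2 scale. With TMM these medians were at 0.002, 0.017 and -0.010. The class comparisons overlapped. Aff2 and Lhfpl3 classes shared 2927 called genes, 68.8% of the Aff2 calls, and 2915 had the same sign. For Tmeff2 and Aff2 the counts were 2871 and 2854, and for Tmeff2 and Lhfpl3 2678 and 2632. Of 486 genes called for both Nts and Lhfpl3, 484 had opposite signs, as had 421 of 448 for Nts and Aff2. Much of these contrasts was thus shared and not particular to 1 gene.

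Nts was lower in the cells that held Lhfpl3. In cells with Lhfpl3, Nts stood at 198, 247, 300.3 and 226 CPM in replicates 1 to 4, against 236, 272, 350 and 277 CPM in cells without it (CPM over thinned UMIs, without TMM). Nts was lower in 4 of 4 libraries, at a log2 fold change of -0.36 over 4 libraries (SE 0.06, adjusted p = 1.96e-08, edgeR), and -0.21 among deeper cells (adjusted p = 0.0446, edgeR). With library sizes alone it was -0.22 (adjusted p = 0.000383, edgeR), and no library left out ended the call. In the reverse division, Lhfpl3 stood at 70.4, 189, 146 and 208 CPM in cells with Nts and 93.1, 241, 171 and 226 CPM in cells without. It was lower in 4 of 4 libraries, at -0.21 (SE 0.05, adjusted p = 0.00492, edgeR). That call was lost without replicate 2 (0.135) and among deeper cells (-0.17, adjusted p = 0.273, edgeR).

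Aff2 was higher in the cells that held Tmeff2. In cells with Tmeff2, Aff2 stood at 33.0, 35.5, 98.5 and 185 CPM, against 23.8, 26.2, 75.02 and 136 CPM in cells without it. It was higher in 4 of 4 libraries, at 0.31 (SE 0.06, adjusted p = 0.0001001, edgeR), and 0.37 among deeper cells (adjusted p = 0.0312, edgeR). In cells with Aff2, Tmeff2 was higher in 4 of 4 libraries, at 269, 223, 291 and 296 CPM against 199, 167, 225 and 210 CPM. The log2 fold change was 0.26 (SE 0.07, adjusted p = 0.00248, edgeR) and 0.18 among deeper cells (adjusted p = 0.484, edgeR). Without the filter on low counts the adjusted p was 0.223 (edgeR).

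Lhfpl3 was called higher with Aff2 and with Tmeff2 over all cells, and not among the deeper ones. In cells with Aff2, Lhfpl3 stood at 113, 297, 220.1 and 315 CPM against 84.8, 222, 151 and 193 CPM, and the log2 fold change was 0.38 (SE 0.07, adjusted p = 5.08e-06, edgeR). Among deeper cells it was 0.00 (adjusted p = 0.999, edgeR). In cells with Lhfpl3, Aff2 was higher in 4 of 4 libraries, by 0.45 (SE 0.07, adjusted p = 1.52e-08, edgeR), and among deeper cells it was at 0.14 (adjusted p = 0.746, edgeR). In cells with Lhfpl3, Tmeff2 was higher by 0.25 (SE 0.06, adjusted p = 9.02e-05, edgeR), with 0.12 among deeper cells (adjusted p = 0.633, edgeR) and an adjusted p of 0.102 when cells were thinned to 4000 UMIs. In cells with Tmeff2, Lhfpl3 was higher in 3 of 4 libraries, by 0.21 (SE 0.06, adjusted p = 0.00511, edgeR). That call was lost among deeper cells (0.04, adjusted p = 0.856, edgeR) and without replicate 4 (0.0957).

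Nts was slightly higher in the cells that held Mlip. In cells with Mlip, Nts stood at 286, 301, 351 and 295 CPM against 226, 252, 335 and 256 CPM in cells without it. It was higher in 4 of 4 libraries, at 0.19 (SE 0.05, adjusted p = 0.0250, edgeR) and 0.25 among deeper cells (adjusted p = 0.00245, edgeR). The call was lost without replicate 1 (0.178) or 2 (0.308), with DESeq2 (0.251) and without the filter on low counts (0.592). Mlip itself was higher in cells with Nts by 0.20 (SE 0.05, adjusted p = 0.0190, edgeR). That call was lost without replicate 1 (0.0643), 2 (0.132) or 4 (0.0649), without the filter (0.0580), with library sizes alone (0.0727) and among deeper cells (0.127). In cells with Mlip, Tmeff2 was higher by 0.25 (SE 0.06, adjusted p = 0.00290, edgeR). That call too was lost among deeper cells (0.08, adjusted p = 0.907, edgeR), without replicate 4 (0.286), with DESeq2 (0.243), without the filter (0.297) and at 4000 UMIs (0.0868).

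Nts between Aff2 classes went different ways in different libraries. In cells with Aff2 it stood at 394 CPM against 222 CPM in replicate 1, and at 215 CPM against 275 CPM in replicate 4. Its log2 fold change was -0.08 (adjusted p = 0.442, edgeR), and without replicate 1 it passed, at -0.26 (adjusted p = 0.00628, edgeR). Mlip was not called between Aff2 or Lhfpl3 classes, at -0.10 and -0.06, but passed for both when cells were thinned to 4000 UMIs, at -0.15 (adjusted p = 0.0463, edgeR) and -0.24 (adjusted p = 0.000256, edgeR). With library sizes alone these members between Aff2 and Lhfpl3 classes were above 0, at 0.09 for Nts and 0.07 and 0.07 for Mlip. Mlip was not called between Tmeff2 classes (0.08, adjusted p = 0.416, edgeR) but was with library sizes alone (0.20, adjusted p = 0.0283, edgeR).

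**Figure D5:**
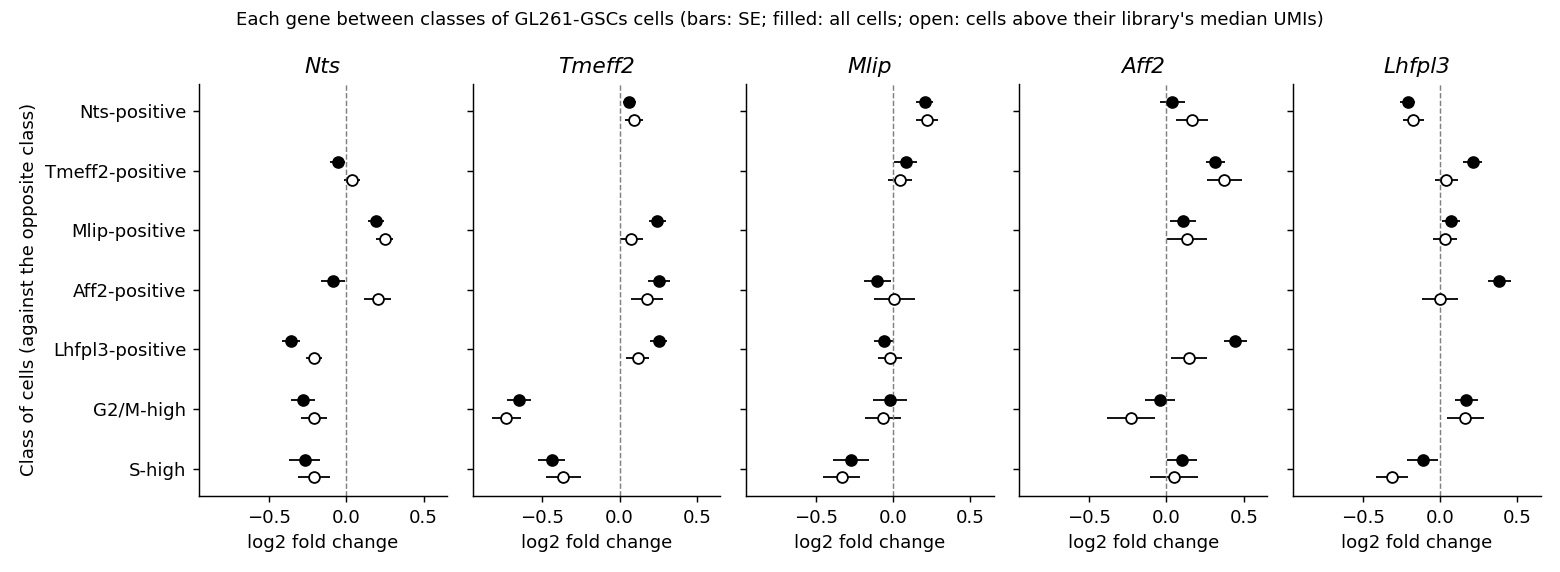
Log2 fold change of each gene between classes of GL261-GSCs cells, with the class named at the left against its opposite, over 4 libraries (bars are SE). Filled symbols are all cells and open symbols cells above their library's median UMIs. Nts falls to the left in cells with Lhfpl3 (-0.36 and -0.21) and Tmeff2 in cells high for G2/M genes (-0.65 and -0.73), while Lhfpl3 between Aff2 classes moves from 0.38 to 0.00.

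Tmeff2 was lower in cells high for G2/M genes. Between the upper and lower 25% of cells of each library by their share of UMIs in 22 G2/M genes, 38.1% of genes differed, 18.2% higher and 20% lower in the upper 25% (2308 higher and 1822 lower with library sizes alone, in place of 1981 and 2174). Without replicate 3, 2355 genes were called in place of 4155. Tmeff2 stood at 154, 132, 197 and 192 CPM in the upper 25% and at 253, 223, 299.5 and 244 CPM in the lower. It fell in 4 of 4 libraries, by 0.65 (log2, SE 0.08, adjusted p = 1.08e-05, edgeR), and by 0.73 among deeper cells (adjusted p = 0.000244, edgeR). No library left out ended the call. Nts stood at 210, 232, 320.2 and 262 CPM against 278, 302, 358 and 258 CPM, lower in 3 of 4 libraries. Its log2 fold change was -0.28 (SE 0.08, adjusted p = 0.00893, edgeR), and the call was lost without replicate 1 (0.0625) and among deeper cells (-0.21, adjusted p = 0.116, edgeR). Mlip, Aff2 and Lhfpl3 did not pass the test, at -0.02, -0.04 and 0.17. With library sizes alone Lhfpl3 passed it, at 0.22 (adjusted p = 0.0297, edgeR).

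The upper and lower 25% by 20 G1/S genes, which mark cells entering S phase, gave a like picture for Tmeff2. Of the genes tested, 22.5% differed, 11.4% higher and 11% lower (1452 higher and 982 lower with library sizes alone, in place of 1253 and 1209). Without replicate 3, 663 genes were called in place of 2462. Tmeff2 stood at 192, 157, 216 and 195 CPM in the upper 25% against 216, 234, 300.1 and 252 CPM, lower in 4 of 4 libraries. The log2 fold change was -0.44 (SE 0.09, adjusted p = 0.00510, edgeR), lost without replicate 3 (0.0595) and among deeper cells (-0.36, adjusted p = 0.0999, edgeR). Nts and Mlip were both at -0.27 and did not pass the test. Both passed without replicate 4, at -0.35 (adjusted p = 0.0363, edgeR) and -0.41 (adjusted p = 0.0210, edgeR). Cells in the upper 25% were deeper in 4 of 4 libraries for both lists, at medians of 17399.5 against 14072.5 UMIs for G2/M in replicate 1, and the part of depth in these differences was not tested beyond the deeper cells.

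From the side of Tmeff2, cell cycle genes were lower in the cells that held it. Of 22 G2/M genes, 0 were higher and 18 lower in cells with Tmeff2, beside 14.4% and 19.2% of all genes, with a median log2 fold change of -0.29 against 0.00 over all genes. Under library sizes alone 13 were lower, and among deeper cells 6. Ube2c, which drives mitotic exit, fell by 0.56 (SE 0.04, adjusted p = 1.43e-12, edgeR), and by 0.28 among deeper cells. Birc5, the survivin of the chromosomal passenger complex, fell by 0.58 (SE 0.05, adjusted p = 1.62e-10, edgeR), and by 0.32 among deeper cells. Of 20 G1/S genes 1 was higher and 11 lower, with 1 and 3 under library sizes alone and 0 and 2 among deeper cells. In the Lhfpl3 and Aff2 classes, whose positive cells were also shallower, 1 of the G1/S genes was higher and 9 lower with Lhfpl3 and 1 and 4 with Aff2, and of the G2/M genes 3 were higher and 6 lower with Lhfpl3 and 2 and 8 with Aff2 (edgeR). Of all genes 18.8% were lower in each of these classes, which is near the share of G1/S genes lower with Aff2. Under library sizes alone the G2/M counts were 7 and 2 with Lhfpl3 and 5 and 5 with Aff2, and among deeper cells 1 and 0 and 0 and 1. In Nts classes 0 and 1 of the 22 G2/M genes were called higher and lower, beside 3.2% and 1.55% of all genes. In Mlip classes 0 and 0 were, beside 1.05% and 0.533% (edgeR). At such shares these counts say little about the cell cycle.

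Most of the myelin genes tested were called higher in cells with Tmeff2. Of 6 such genes tested 5 were higher and 0 lower, beside 14.4% and 19.2% of all genes, at a median of 0.36, with 3 called among deeper cells. In Aff2 classes 0 of the 6 were higher and 4 lower, beside 16.6% and 18.8% of all genes, at a median of -0.39, with 0 and 2 under library sizes alone and 0 and 0 among deeper cells. In Lhfpl3 classes 1 was higher and 1 lower, near the 14.7% and 18.8% of all genes. Opalin, a membrane protein of mature oligodendrocytes, rose by 0.64 (SE 0.09, adjusted p = 1.88e-07, edgeR), and by 0.69 among deeper cells. In the upper 25% by G2/M genes, where Tmeff2 was low, 0 of the 6 were higher and 5 lower, beside 18.2% and 20% of all genes. Of the largest differences between Tmeff2 classes, Thbs2, a thrombospondin, rose by 1.27 (SE 0.08, adjusted p = 3.70e-15, edgeR), the matrilin Matn2 by 0.88 (adjusted p = 2.10e-13, edgeR) and the cAMP phosphodiesterase Pde4b by 0.97 (adjusted p = 8.46e-15, edgeR). Among deeper cells the 3 stayed higher, by 1.18, 0.73 and 0.43. Egr1, an immediate early factor, fell by 0.68 (adjusted p = 2.63e-09, edgeR), and by 0.73 among deeper cells. Pmf1 and Spc24, both of the kinetochore, fell by 0.62 (adjusted p = 7.00e-08, edgeR) and 0.58 (adjusted p = 9.65e-08, edgeR). Among deeper cells Pmf1 fell by 0.36, and Spc24 was not called there (-0.26, adjusted p = 0.166, edgeR).

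Some myelin and OPC genes were lower in cells with Nts. Of the 6 myelin genes 1 was higher and 4 lower, beside 3.2% and 1.55% of all genes, at a median of -0.34, with 0 and 3 among deeper cells. Mbp, a structural protein of myelin, fell by 0.54 (SE 0.07, adjusted p = 5.61e-07, edgeR), and by 0.63 among deeper cells. The exception, Opalin, was higher by 0.30 (SE 0.08, adjusted p = 0.0225, edgeR) and lost that call among deeper cells (0.38, adjusted p = 0.0750, edgeR). Of 12 OPC genes tested 0 were higher and 6 lower, at a median of -0.21, with 10 lower under library sizes alone, where 554 of 12419 genes were lower, and 1 among deeper cells, Sox10. Cspg4, the NG2 proteoglycan of OPCs, fell by 0.28 (SE 0.05, adjusted p = 5.94e-05, edgeR), with -0.20 among deeper cells (adjusted p = 0.164, edgeR). The largest rise with Nts was in Isg15, an interferon-induced ubiquitin-like protein, by 0.72 (SE 0.07, adjusted p = 3.60e-10, edgeR) and by 0.76 among deeper cells. Rsad2, the antiviral protein viperin, rose by 0.56 (adjusted p = 2.29e-06, edgeR) and Thbs2 by 0.50 (adjusted p = 2.48e-07, edgeR), and neither passed among deeper cells, at 0.31 (adjusted p = 0.453) and 0.15 (adjusted p = 0.639). The largest falls were in the adhesion molecule Cadm2, by 0.57 (adjusted p = 2.67e-06, edgeR), the RNA polymerase subunit Polr2l, by 0.57 (adjusted p = 3.81e-06, edgeR), and Mbp. Cadm2 and Polr2l fell among deeper cells as well, by 0.82 and 0.41. DESeq2 gave these leading genes, Isg15, Rsad2, Thbs2, Cadm2, Polr2l and Mbp, no adjusted p, so it called none of them. Their folds kept their sign, at 0.73 for Isg15 and -0.54 for Mbp.

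Most of the OPC genes tested were called higher in cells with Lhfpl3. Of 12 tested 8 were higher and 1 lower, beside 14.7% and 18.8% of all genes, at a median of 0.35. The counts were 9 and 0 under library sizes alone, where 3588 of 12206 genes were higher, and 2 and 0 among deeper cells. Pdgfra, the PDGF receptor that defines OPCs, rose by 0.44 (SE 0.06, adjusted p = 1.25e-11, edgeR), and by 0.30 among deeper cells (adjusted p = 0.0414, edgeR). Ptprz1 rose by 0.37 (SE 0.06, adjusted p = 3.89e-09, edgeR), and by 0.27 among deeper cells (adjusted p = 0.00501, edgeR). Of the largest differences, the 3 falls held among deeper cells and the 3 rises did not. Mt3, the brain metallothionein, fell by 1.10 (SE 0.06, adjusted p = 1.01e-64, edgeR), the galectin Lgals3 by 0.98 (SE 0.07, adjusted p = 5.66e-40, edgeR) and the cystatin Cst6 by 0.74 (SE 0.06, adjusted p = 5.24e-34, edgeR). Among deeper cells they fell by 0.77, 0.62 and 0.47. Cadm2 rose by 1.06 (adjusted p = 6.39e-40, edgeR), the long noncoding RNA Kcnq1ot1 by 0.84 (adjusted p = 2.22e-40, edgeR) and the metalloproteinase Mmp16 by 0.84 (adjusted p = 7.12e-37, edgeR). Among deeper cells these were at 0.57, 0.37 and 0.31 and did not pass (adjusted p = 0.0747, 0.0747 and 0.248, edgeR). Cadm2 was thus lower in cells with Nts and higher in cells with Lhfpl3 among all cells.

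The largest differences of Aff2 classes were not called among deeper cells. The largest rises were in Dcc, the netrin receptor, by 1.08 (SE 0.10, adjusted p = 8.64e-19, edgeR), and the noncoding RNAs Kcnq1ot1, by 0.99 (adjusted p = 2.20e-26, edgeR), and Lncpint, by 0.98 (adjusted p = 3.30e-14, edgeR). The largest falls were in Cox19, by 0.84 (adjusted p = 3.64e-06, edgeR), Rps10-ps2, by 0.80, and Mcrip2, by 0.79. Rps10-ps2 is a ribosomal protein pseudogene and its count is uncertain. Among deeper cells none of these 6 passed, with adjusted p from 0.134 to 0.641 (edgeR). Their log2 fold changes there were 0.35 for Dcc, 0.44 for Kcnq1ot1, 0.52 for Lncpint, -0.42 for Cox19, -0.25 for Rps10-ps2 and -0.57 for Mcrip2. Genes higher in cells with Aff2 were long, with a median span of 64.4 kb against 9.21 kb for genes lower. In Lhfpl3 classes the medians were 58.6 and 9.75 kb and in Tmeff2 classes 56.7 and 10.5 kb. In Nts classes the order was the opposite, 7.67 kb for genes higher and 76.1 kb for genes lower. In Mlip classes they were 61.0 and 24.5 kb, and between the upper and lower 25% by G2/M genes, where the upper cells were deeper, 33.3 and 13.1 kb. The part of gene span, depth and nuclear RNA in the results was not tested beyond the deeper cells.

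Mlip classes gave the smallest number of called genes among the 5. Hmga2, a chromatin architectural protein of fetal and tumour cells, rose by 0.80 (SE 0.06, adjusted p = 2.26e-24, edgeR), Id3, an inhibitor of helix-loop-helix factors, by 0.76 (SE 0.10, adjusted p = 2.49e-09, edgeR) and Wfdc13 by 0.58 (SE 0.08, adjusted p = 2.49e-09, edgeR). Among deeper cells all 3 rose, by 0.66, 0.62 and 0.49. The collagen Col11a2 fell by 0.65 (SE 0.07, adjusted p = 7.81e-15, edgeR) and Cnmd, the cartilage protein chondromodulin, by 0.62 (adjusted p = 7.16e-15, edgeR), and among deeper cells by 0.56 and 0.49. With DESeq2 the fold of Col11a2 was as large, -0.68, and did not pass (adjusted p = 0.489). Omg, a myelin-associated glycoprotein, fell by 0.53 (adjusted p = 7.25e-05, edgeR), a call lost among deeper cells (-0.40, adjusted p = 0.459, edgeR) and with DESeq2 (-0.51, adjusted p = 0.0812). Of the 6 myelin genes 0 were higher and 3 lower, beside 1.05% and 0.533% of all genes. When replicate 2 was left out 0 were lower.

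Genes of the pathways around the 5 were some higher and some lower in GL261-GSCs, beside 15.8% of all genes tested higher and 14.1% lower. For neurotensin, the receptor gene Ntsr1 was at 0 UMIs in both cultures, and Ntsr2 at 5 in GL261 and 1 in the other culture, so that the G protein-coupled receptors were at or near 0 in the culture with the ligand. Sort1 was present at 29.6 CPM in GL261-GSCs and 30.7 CPM in GL261 and did not pass the test (log2 fold change -0.05, adjusted p = 0.844, edgeR). Of 25 genes of the list, which holds receptors, processing enzymes, granule proteins and peptidases, 12 were tested between the cultures, 0 higher and 2 lower. Cpe, the carboxypeptidase that trims peptide hormones, fell by 1.29 (SE 0.20, adjusted p = 0.00428, edgeR), from 630 to 258 CPM. The convertase gene Furin fell from 23.4 to 15.0 CPM (log2 fold change -0.64, SE 0.19, adjusted p = 0.0407, edgeR), a call lost under library sizes alone (0.128) and without any 1 library other than GL261-GSCs replicate 4 (0.0604 to 0.213). Of the other convertases, Pcsk7 was at 15.2 CPM in GL261-GSCs, Pcsk2 had 25 UMIs there, and Pcsk1 and Pcsk5 had 0. Between Nts classes, where 3.2% of all genes were higher, 1 of 10 was, Pam, which amidates peptides, by 0.25 (SE 0.05, adjusted p = 0.000297, edgeR). That call was lost without replicate 2 and among deeper cells (0.0825). Between Tmeff2 classes 4 of the 10 were higher and 1 lower, beside 14.4% and 19.2% of all genes.

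Of 11 genes tested around Tmeff2, 3 were higher and 4 lower in GL261-GSCs, at a median of -0.52. Tmeff1, its paralog, rose from 3.09 to 38.2 CPM (log2 fold change 3.63, SE 0.30, adjusted p = 0.000372, edgeR). Pdgfra rose from 6.40 to 124 CPM (4.27, SE 0.61, adjusted p = 0.00308, edgeR), while Pdgfa, which encodes the chain of PDGF-AA, fell from 260.2 to 86.2 CPM (-1.59, SE 0.15, adjusted p = 0.000612, edgeR). Between Tmeff2 classes, where 14.4% of all genes were higher, 2 of 10 were, the sheddase Adam10 by 0.33 (SE 0.06, adjusted p = 2.84e-05, edgeR) and the receptor Erbb3 by 0.21 (SE 0.06, adjusted p = 0.00454, edgeR), and 0 among deeper cells. Under library sizes alone 6 of the 10 were higher and 0 lower. Between Lhfpl3 classes 5 of the 10 were higher and 1 lower, beside 14.7% and 18.8% of all genes. Between Aff2 classes 3 were higher and 1 lower, beside 16.6% and 18.8%, so rises in this list were not particular to Tmeff2.

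Of 14 nuclear lamina genes, which include the partner of Mlip, 1 was higher and 4 lower in GL261-GSCs. Lmna, which encodes lamin A/C, fell from 868 to 34.2 CPM (-4.66, SE 0.26, adjusted p = 0.00010003, edgeR), so that Mlip was present in the culture where its partner was low. The other 4 calls of the list were each lost without a GL261 library. Between Mlip classes, where 1.58% of all genes were called, 0 of 14 were (edgeR). Of 5 muscle genes tested 2 were higher and 1 lower in GL261-GSCs. Desmin (Des), an intermediate filament of muscle, rose from 0.744 to 10.1 CPM (3.75, SE 0.46, adjusted p = 0.00165, edgeR), and the embryonic myosin Myh3 from 0.0767 to 8.20 CPM (6.69, SE 0.91, adjusted p = 0.0025, edgeR). The summed level of the 7 listed genes was 2.68 to 3.26 CPM in GL261 and 12.5 to 29.8 CPM in GL261-GSCs libraries, with Myod1 at 0 UMIs in both cultures. Of 14 genes tested of the AFF family and the super elongation complex, 1 was higher and 4 lower. Aff4, the most abundant, was at 162 CPM against 150 CPM and did not pass (0.11, adjusted p = 0.710, edgeR), and Eaf1, a partner of ELL factors, fell from 55.3 to 26.3 CPM (-1.07, SE 0.14, adjusted p = 0.00217, edgeR). Between Aff2 classes, where 16.6% of all genes were higher, 5 of 14 were, among them Aff4 by 0.39 (SE 0.07, adjusted p = 2.96e-06, edgeR), and 0 among deeper cells. Under library sizes alone 9 were higher, and without replicate 4 1 was. Between Lhfpl3 classes 4 of the 14 were higher and 0 lower, beside 14.7% and 18.8% of all genes. Between Tmeff2 classes 3 were higher and 1 lower, beside 14.4% and 19.2%, so rises in this list were not particular to Aff2.

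Of 7 genes tested of the LHFPL family and its partners, 2 were higher and 1 lower in GL261-GSCs. Lhfpl2 rose from 9.62 to 34.2 CPM (1.83, SE 0.24, adjusted p = 0.00208, edgeR) and Lhfp fell from 135 to 33.7 CPM (-2.01, SE 0.27, adjusted p = 0.00225, edgeR), so the family did not move as a whole. Pcdh15, a protocadherin that pairs with LHFPL5 in hair cells and is also an OPC gene, had 2 UMIs in GL261. In GL261-GSCs it ranged from 6.03 to 168 CPM, and its call was lost without either GL261 library (0.0893 and 0.0919). Between Lhfpl3 classes, where 14.7% of all genes were higher, 3 of 6 were, with 0 among deeper cells. They included Lhfpl2 by 0.49 (SE 0.08, adjusted p = 2.88e-08, edgeR) and Pcdh15 by 0.53 (SE 0.07, adjusted p = 2.04e-12, edgeR). Between Aff2 classes 4 of the 6 were higher and 0 lower, beside 16.6% and 18.8% of all genes. Between Tmeff2 classes 4 and 0 were, beside 14.4% and 19.2%, so rises in this list were not particular to Lhfpl3.

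Oligodendrocyte lineage genes were mostly higher in GL261-GSCs. Of 13 OPC genes tested 9 were higher and 0 lower, beside 15.8% and 14.1% of all genes. Their median log2 fold change was 3.82 against 0.04 over all genes. Fewer of them were called higher when either GL261 library was left out. Gpr17, a receptor of cells committed to differentiation, rose from 0.220 to 9.60 CPM (5.44, SE 0.32, adjusted p = 0.000115, edgeR). The transcription factor Olig2 stood at 0.467 ± 0.638 CPM (SD, n = 2) in GL261, where nearly all of its UMIs were in 1 library. In GL261-GSCs it stood at 557 CPM. Sox10 was at 344 and 343 CPM, so this lineage factor was present at like levels in GL261, where the 5 genes were at or near 0. Of 9 myelin genes tested 6 were higher and 1 lower, beside 15.8% and 14.1% of all genes. Cnp, an early myelin enzyme, rose from 29.5 to 181 CPM (2.61, SE 0.17, adjusted p = 0.000155, edgeR), and the exception, Mbp, fell from 190 to 49.5 CPM (-1.94, SE 0.31, adjusted p = 0.00480, edgeR), a call lost without GL261 replicate 2 (0.0538).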

How the data were processed

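The authors deposited counts of UMIs for every gene and barcode, from Cell Ranger (version 4 per the file headers) on build mm10 per the submitters' processing notes. A barcode was called a cell if it held 500 genes, under 10% mitochondrial UMIs and at least 10% of the UMIs found at the 99th percentile of the 3000 largest barcodes. No doublet caller was run. The UMI minimum was 2060 to 3275, and cells of a library held 33320530 to 79472306 UMIs. For shares and classes each cell was thinned to 2000 UMIs. The share that free RNA would give was scaled from barcodes with 100 to under 1000 UMIs (medians 472 to 679).

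Counts summed per library, or per library and class, were tested with edgeR 4.0.16 (glmQLFit, glmQLFTest) in R 4.3.3, with TMM, filterByExpr and Benjamini-Hochberg adjustment over all genes, called at 0.05. The comparison of cultures had no block, and classes had the library as a block and left out the genes that define them. The SE is the absolute log2 fold change over the square root of F. On simulated counts the comparison of cultures recovered 186 of 200 genes changed by 2 on the log2 scale, and the class comparisons 196 to 200 of 200 changed by 1. Alternatives were DESeq2 1.42.0, library sizes alone, no filter, 4000 UMIs, deeper cells, all barcodes with at least 1000 UMIs, and each library left out. The deeper cells, the depth bins and the library sizes alone for classes were chosen after seeing the data.

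The genes named were the 5 members, the 3 largest rises and falls of each class comparison with an average log2 CPM of at least 5 (without predicted and mitochondrial genes), the 3 nearest in pattern, those nearest the threshold, and in each list the most abundant gene and that with the smallest p. Flanking genes and other list members named were chosen after their values were seen. Members and lists were chosen with earlier results of these data known. Of the identifiers, 54409 matched GENCODE M21 without version, and 93 symbols were repeated.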

Additional observations from a re-analysis of the deposited data

How the results depend on the processing

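Of the values followed singly, which are those of the 5 genes, the leading genes of each class and the called list genes between the cultures, no called one changed sign under the alternatives run for it. The other genes called between classes were not followed singly. Mlip between Aff2 and Lhfpl3 classes and Nts between Aff2 classes, which were not called there, passed below 0 under some alternatives and were above 0 with library sizes alone. The counts of genes called in the Nts, Tmeff2, Mlip, Aff2, Lhfpl3, G2/M and S classes were 246, 2061, 32, 2093, 1835, 2075 and 1194 with DESeq2, and 109, 436, 52, 104, 86, 1307 and 363 among deeper cells. At 4000 UMIs the Nts count was 1021 and the Mlip count 372. With no replicate block, that is with the library left out of the design, they were 0 for each of the 5 genes (38, 509, 54, 1532 and 577 at an unadjusted p under 0.05, edgeR), 585 for G2/M and 156 for S. With each library in turn left out, the counts went from 180 to 600, 2838 to 3615, 107 to 159, 2769 to 4298, 2307 to 4010, 2355 to 3682 and 663 to 2448. The comparison of cultures called 5514 genes and 1816 to 6192 with a library left out, with 1978 without GL261 replicate 1 and 1816 without replicate 2, where the lone GL261 library is assumed to vary like the others. With the replicate number as a replicate block it called 6512. Only numbers 1 and 2 are shared by the cultures and they are not known to pair samples, with deviations that correlated at -0.089 and 0.132. At 4000 UMIs the shares of cells were 51.0% for Nts, 40.9% for Tmeff2, 25.2% for Mlip, 17.1% for Aff2 and 38.7% for Lhfpl3, and without thinning 69.7%, 66.1%, 45.6%, 64.3% and, for Aff2, 33.6%. Among all barcodes with at least 1000 UMIs, thinned to 1000, they were 22.6% for Nts, 17.7% for Tmeff2, 9.24% for Mlip, 6.95% for Aff2 and 15.5% for Lhfpl3. With a library left out they ranged from 31.5 to 35.4% for Nts, 27.2 to 28.8% for Tmeff2, 12.7 to 17.6% for Mlip, 7.97 to 13.8% for Aff2 and 22.9 to 29.1% for Lhfpl3. The median co-detection ratio over the 10 pairs was 1.08, and 1.05 to 1.10 with a library left out. The few UMIs of these genes limit what can be said of GL261, where 0 to 32 per library stand for each gene.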
